A study of Mus musculus with 6 samples.

Results

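The fatty acid elongases and desaturases are the enzymes that lengthen fatty acids and put double bonds into them. Their transcripts were compared between cultured primary brown adipocytes of WT and Ucp1-KO mice. The 10 genes were chosen as a family, by name, with earlier results of these data known. They are the 5 elongases Elovl1, Elovl3, Elovl4, Elovl5 and Elovl6 and the 5 desaturases Scd1, Scd2, Fads1, Fads2 and Fads3, out of 22466 genes with a RefSeq transcript in the deposited table. Elovl1 alone had more than 1 RefSeq transcript, and the most abundant of its 3, NM_019422, stands for it.

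Brown fat precursors were taken from the interscapular depot of male mice aged 5 to 6 weeks. All mice had the same 129SvEvS1 background, and the knockout genotype is given as UCP1(-/-). Both genotypes went through the same differentiation, 2 days in induction medium and 7 days in a medium with insulin, thyroid hormone and rosiglitazone, an agonist of PPARγ, and no adrenergic agonist is named for the RNA samples. Sequenced were libraries made with a TruSeq RNA kit from the RNA of 3 cultures of the WT (replicates 10, 11 and 12) and 3 of the Ucp1-KO (replicates 13, 14 and 15). Abundance is given in RPKM, the reads of a transcript scaled to its length and to the depth of its library.

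Palmitate made by fatty acid synthase is the usual starting point for saturated and monounsaturated chains, whereas polyunsaturated chains start from fatty acids of the diet. Elongases of the ELOVL family carry out the first, rate-limiting step of a cycle in the endoplasmic reticulum that extends the acyl chain with carbons from malonyl-CoA, and each member prefers chains of a certain length and saturation. Stearoyl-CoA desaturases make the monounsaturated palmitoleate and oleate that dominate stored triglyceride, whereas the FADS enzymes act on polyunsaturated chains and related lipids. In brown fat, Elovl3 is best known for its strong induction by cold, and Scd1 for its very high level in fat-storing cells.

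The labels were checked first. Ucp1 was listed at 981 to 1775 RPKM in the WT and at 307 to 409 RPKM in the Ucp1-KO cultures, without overlap. The study ascribes what is left in the Ucp1-KO to an untranslated remnant transcript without some of the exons, which is counted in these values. Totals of 14989604 to 17727653 reads per culture were estimated from the steps of the RPKM values. With them 93.6% to 93.7% of the values of Ensembl transcripts of known length lay within 0.05 reads of a whole number, among values under 1000 reads, and 3 reads on a transcript of 2000 bases equalled 0.0846 to 0.1001 RPKM, a floor for counting error only. The summed abundance of 6 adipocyte markers (Adipoq, Fabp4, Plin1, Lipe, Cidea and Pnpla2) was 29936 to 31542 RPKM in WT and 30576 to 33631 RPKM in Ucp1-KO cultures, most of it Fabp4 (26399 to 29312 RPKM over all cultures). The 7 stromal markers summed to 593 to 1537 and 568 to 860 RPKM, with the highest sum in WT replicate 11, and Dlk1 among them stayed between 0.0552 and 0.569 RPKM. The 5 macrophage markers summed to 55.4 to 169 and 41.4 to 803 RPKM, with the highest sum in Ucp1-KO replicate 14. The 4 endothelial markers summed to 2.30 to 28.0 and 5.22 to 12.8 RPKM, again with the highest sum in WT replicate 11, and the 5 skeletal muscle markers to 3.37 to 8.14 and 3.05 to 16.7 RPKM. By chi-square per degree of freedom over transcripts, each of the 3 Ucp1-KO cultures was nearer to a WT culture than to another Ucp1-KO culture. Ucp1-KO replicate 13 was nearest to WT replicate 10 (16.45), and replicates 14 and 15 to WT replicate 12 (24.92 and 24.95), against at least 29.3 between Ucp1-KO cultures. WT replicates 11 and 12 were the nearest pair of all, and no pair of cultures agreed within sampling noise.

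Promoters of the members are shown because 6 of the 10 genes turned out lower in every Ucp1-KO than in every WT culture. RefSeq promoters on GRCm38.p6 were found for 6 members, namely Elovl1, Elovl4, Elovl5, Elovl6, Fads2 and Fads3. No entry was found for Scd1, Scd2, Fads1 and Elovl3. Printed below are the 250 bases before an annotated transcription start of the 4 that are among the 6 lower genes. Elovl1 has 2 promoter entries, and the one with the lower coordinate is shown. The RefSeq spans of Elovl1 and Fads3 begin upstream of the windows printed, so that these are not the outermost starts of the genes. Capitals mark matches, on either strand, to motifs bound by known regulators of lipid genes.

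Fads2 promoter, chr19:10101504-10101753, reverse strand: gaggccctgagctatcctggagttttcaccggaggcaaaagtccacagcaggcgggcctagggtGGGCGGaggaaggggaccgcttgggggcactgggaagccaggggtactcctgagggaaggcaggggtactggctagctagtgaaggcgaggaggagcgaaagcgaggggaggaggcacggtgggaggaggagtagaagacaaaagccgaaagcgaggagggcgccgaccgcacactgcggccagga

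Fads3 promoter, chr19:10041298-10041547, forward strand: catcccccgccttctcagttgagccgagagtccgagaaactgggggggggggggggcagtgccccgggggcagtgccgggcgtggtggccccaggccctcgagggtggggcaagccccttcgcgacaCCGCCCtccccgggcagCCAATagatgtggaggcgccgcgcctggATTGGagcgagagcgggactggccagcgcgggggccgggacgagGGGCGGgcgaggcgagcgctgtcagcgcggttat

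Elovl1 promoter, chr4:118427843-118428092, forward strand: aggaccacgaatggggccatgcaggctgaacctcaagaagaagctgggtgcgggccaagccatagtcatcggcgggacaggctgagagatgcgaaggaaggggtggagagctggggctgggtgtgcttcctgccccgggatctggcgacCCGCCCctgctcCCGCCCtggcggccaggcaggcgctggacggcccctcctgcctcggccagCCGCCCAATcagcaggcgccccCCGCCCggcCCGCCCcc

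Elovl5 promoter, chr9:77917115-77917364, forward strand: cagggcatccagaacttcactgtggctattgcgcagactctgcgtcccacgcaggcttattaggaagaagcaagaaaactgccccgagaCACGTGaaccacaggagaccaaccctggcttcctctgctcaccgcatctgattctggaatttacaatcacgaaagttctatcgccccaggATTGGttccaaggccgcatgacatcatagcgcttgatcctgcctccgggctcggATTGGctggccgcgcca

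The motifs searched were a sterol regulatory element (TCACNCCAC), the E-box CACGTG, the CCAAT box, the GC box GGGCGG, and direct repeats of AGGTCA with 1 or 4 bases between, the types bound by PPAR and LXR. A CCAAT box and a GC box overlap in the Elovl1 promoter. The E-box in Elovl5 was the single match of that motif among the 7 promoter entries of the 6 members, and 6.02% of all 32851 promoter windows of this length hold one. CCAAT boxes were found at 2 places in Fads3, 2 in Elovl5 and 1 in Elovl1, against 33.8% of all windows with at least 1. GC boxes were found in Fads2, Fads3, Elovl1 and Elovl4, against 32.7% of all windows. No sterol regulatory element of these letters (1.05% of all windows) and no direct repeat of either kind (0.0335% and 0.0152%) was found in any of the 7 windows. The Elovl6 window held none of the motifs. These are matches of letters and do not show binding.

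The positions are those of RefSeq on GRCm38.p6. On chromosome 19 lie 6 of the 10 genes, in a FADS cluster and a farther group with the SCD genes and Elovl3. The cluster holds Fads3 (chr19:10040855-10060113), Fads2 (chr19:10062765-10101503) and Fads1 (chr19:10182877-10196874). The farther group holds Scd2 (chr19:44293676-44306864), Scd1 (chr19:44394450-44407709) and Elovl3 (chr19:46131897-46135694). The others are Elovl1 (chr4:118426874-118432953), Elovl6 (chr3:129532386-129638495), Elovl5 (chr9:77917365-77984519) and Elovl4 (chr9:83778692-83806305).

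Abundance of the 10 transcripts spanned more than 4 orders of magnitude. Scd1 stood at the top with a mean of 9071 RPKM over the 6 cultures, which made it number 2 of all 22466 genes, and it alone took 4.57% to 5.46% of all reads in WT and 3.21% to 4.17% in Ucp1-KO cultures. Scd2 followed as number 56 with 571 RPKM, 15.9-fold below Scd1. Elovl3 (113 RPKM) and Fads3 (100.04 RPKM) came next and were not separated, with Elovl3 higher in 4 of the 6 cultures. Below them were Elovl5 with 52.7, Fads1 with 41.2, Elovl1 with 26.4 and Fads2 with 23.9 RPKM. The ranges of Elovl1 and Fads2 overlapped, as did those of Elovl3 and Fads3, while the 7 other pairs of neighbours did not overlap. Elovl6 reached 7.62 RPKM and Elovl4 0.445 RPKM.

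**Figure D1:**
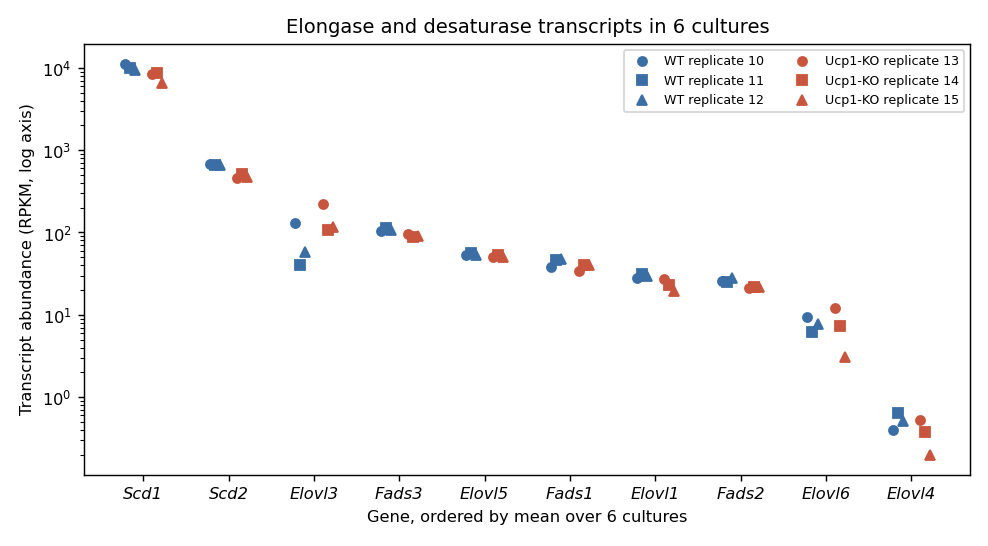
Abundance of the 10 transcripts in RPKM on a log axis, 1 point per culture, with WT cultures in blue and Ucp1-KO cultures in red, and genes ordered by their mean. Scd1 lies between 6632 and 11285 RPKM, and Elovl4 at the other end stays below 0.7 RPKM in all cultures.

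Scd1 encodes the main stearoyl-CoA desaturase of adipose tissue. It was found at 11285, 9977 and 9446 RPKM in WT replicates 10, 11 and 12, and at 8476, 8612 and 6632 RPKM in Ucp1-KO replicates 13, 14 and 15. All Ucp1-KO cultures thus lay below all WT cultures, with a WT mean of 10236 ± 947 and a Ucp1-KO mean of 7907 ± 1106 RPKM (SD, n = 3 each), or 77.2% of WT. In bulk RNA, fewer cells of a type and less RNA per cell cannot be told apart. The log2 fold change was -0.38 with a standard error of 0.19 (limma adjusted p = 0.871, unadjusted p = 0.0878). A positive value here and below means higher in Ucp1-KO cells, on the scale of log2(RPKM + 1).

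Scd2, a close relative of Scd1 known from brain and from fat cell precursors, had the lowest unadjusted p of the members. WT replicates gave 674, 652 and 657 RPKM, Ucp1-KO replicates 456, 511 and 473 RPKM. The Ucp1-KO cultures again lay below all WT cultures, with a gap of 141 RPKM between the nearest pair and an SD of 11.5 RPKM in the WT group against 28.1 RPKM in Ucp1-KO cultures (n = 3 each). The Ucp1-KO mean was 72.6% of WT, with a log2 fold change of -0.46 and a standard error of 0.10 (limma adjusted p = 0.868, unadjusted p = 0.00218). The ratio of Scd1 to Scd2 within a culture was 14.4 to 16.7 in WT and 14.01 to 18.6 in Ucp1-KO cells, so that the genotypes overlapped in it.

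Scd1 and Scd2 share 90.3% of their aligned coding bases and an identical run of 147 bases in GENCODE M21, which is longer than a read of 50 bases. In Scd1 4.66% and in Scd2 4.01% of all windows of 50 bases occur in a transcript of another gene, so that most of either transcript is distinct. Scd3, which has 6.66% of such windows and matches Scd1 best, was listed at 2.84 to 7.72 RPKM, with a mean of 5.52 RPKM beside 9071 RPKM for Scd1. According to the methods of the study, reads with a unique position were assigned to transcripts.

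The FADS genes lie next to each other on chromosome 19 and were alike in their direction. Fads2 encodes the desaturase of the first step toward long polyunsaturated fatty acids. Its abundance was 25.9, 25.1 and 28.0 RPKM in the WT group against 21.2, 21.5 and 21.6 RPKM in the Ucp1-KO group, so that the genotypes were apart by 3.48 RPKM, or means of 26.3 ± 1.49 and 21.5 ± 0.207 RPKM (SD, n = 3 each). The log2 fold change was -0.28 with a standard error of 0.08 (limma adjusted p = 0.868, unadjusted p = 0.0111). The smallest whole reads that fit all 6 values were 489 to 748 per culture. They go with a transcript shorter than the 3150 bases of Fads2 in GENCODE M21, so that the true reads may be more.

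Fads3, whose enzyme is best known for its action on sphingoid bases, had 103, 114 and 108 RPKM in the WT group against 96.2, 89.1 and 89.9 RPKM in the Ucp1-KO group. The genotypes did not overlap, and the Ucp1-KO mean was 84.6% of WT (log2 fold change -0.24, standard error 0.09, limma adjusted p = 0.868, unadjusted p = 0.0273). Fads1, the desaturase that acts later on the same polyunsaturated chains as Fads2, had 38.1, 46.7 and 48.3 RPKM in the WT group against 33.8, 39.7 and 40.5 RPKM in the Ucp1-KO group. Here WT replicate 10 lay below 2 of the Ucp1-KO cultures, so that the genotypes overlapped (log2 fold change -0.21, standard error 0.12, limma adjusted p = 0.876). The value for Fads1 was -0.14 without Ucp1-KO replicate 13 and -0.32 without WT replicate 10, the latter at an unadjusted p of 0.0309 (limma adjusted p = 0.453). The sum of the 3 FADS transcripts was 167, 186 and 184 RPKM in the WT group against 151, 150.3 and 152 RPKM in the Ucp1-KO group, and the latter 3 differed by less than 2 RPKM.

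**Figure D2:**
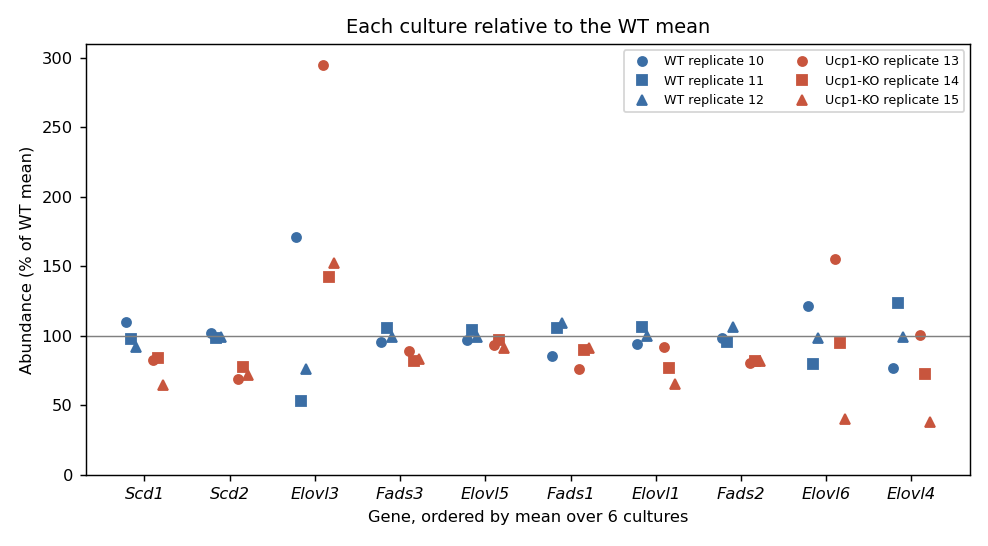
Abundance of each transcript in each culture in percent of the mean of the 3 WT cultures, with WT in blue and Ucp1-KO in red. The red points of Scd1, Scd2, Fads3, Elovl5, Elovl1 and Fads2 lie below all blue points of the same gene, and Elovl3 and Elovl6 show the widest scatter.

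Among the elongases, Elovl1, which makes saturated very long chains for sphingolipids, had 27.9, 31.5 and 29.8 RPKM in the WT group against 27.3, 22.7 and 19.5 RPKM in the Ucp1-KO group. The groups were apart by 0.610 RPKM at their nearest, Ucp1-KO replicate 13 being close to WT replicate 10, and the means were 29.7 ± 1.82 and 23.2 ± 3.91 RPKM (SD, n = 3 each). The log2 fold change was -0.36 with a standard error of 0.13 (limma adjusted p = 0.868, unadjusted p = 0.0308). The other RefSeq transcripts of Elovl1 gave log2 fold changes of -0.33 for NM_001039175 and -0.35 for NM_001039176.

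Elovl5, the elongase of polyunsaturated chains, was nearly level, with 52.7, 56.7 and 53.8 RPKM in the WT group against 50.7, 52.6 and 49.8 RPKM in the Ucp1-KO group. The groups were apart by 0.0901 RPKM only, and the log2 fold change was -0.09 with a standard error of 0.08 (limma adjusted p = 0.893).

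Elovl3, which extends saturated and monounsaturated chains, was the single member with a higher mean in Ucp1-KO cells. It had 130.2, 40.5 and 57.9 RPKM in the WT group against 225, 108 and 116 RPKM in the Ucp1-KO group. WT replicate 10 lay above Ucp1-KO replicates 14 and 15, so that the genotypes overlapped, with means of 76.2 ± 47.6 and 149.6 ± 65.1 RPKM (SD, n = 3 each). The log2 fold change was 1.06 with a standard error of 0.46 (limma adjusted p = 0.868, unadjusted p = 0.0562), and it ranged from 0.70 without WT replicate 11 to 1.53 without WT replicate 10. In the latter case Elovl3 had the lowest unadjusted p of the members, 0.00512 (limma adjusted p = 0.382). Elovl3 made up 29.9% to 59.0% of the summed elongase RPKM in WT and 56.6% to 71.3% in Ucp1-KO cultures. The sum of the 5 elongases overlapped between genotypes (136 to 221 and 189 to 315 RPKM), while the sum of the 5 desaturases did not (10287 to 12127 and 7258 to 9273 RPKM). Scd1 alone made up 91.4% to 93.3% of the desaturase sum, so that this sum repeats the result for Scd1.

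Elovl6 extends palmitate to stearate and thus provides the substrate of the stearoyl-CoA desaturases. It had 9.44, 6.16 and 7.66 RPKM in the WT group against 12.03, 7.33 and 3.11 RPKM in the Ucp1-KO group, so that the highest and the lowest value both came from Ucp1-KO cultures. The log2 fold change of -0.18 had a standard error of 0.40 (limma adjusted p = 0.954) and turned to 0.27 without Ucp1-KO replicate 15. Of its windows of 50 bases, 4.59% also occur in transcripts of other genes. Elovl4, which makes the longest chains of retina and skin, was near the limit of detection, with 21, 33 and 28 reads in WT and 26, 20 and 9 reads in Ucp1-KO cells, or 0.197 to 0.647 RPKM. Its mean was under the minimum of 0.5 RPKM, so that it was left out of the test.

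No member passed the test over all transcripts. Of the 16865 transcripts abundant enough to be tested (0.5 RPKM or more on average), 0 or 0% had a limma adjusted p under 0.05, and limma-voom on the recovered reads also called 0. Ucp1 itself, the gene knocked out, did not pass (log2 fold change -1.78, standard error 0.24, limma adjusted p = 0.868, unadjusted p = 0.000157), so that the lack of calls says little about the members. At an unadjusted p under 0.05 were 935 or 5.54% of all transcripts (894 by limma-voom), 3.24% lower and 2.3% higher in Ucp1-KO cells. Of the 9 members tested, 4 (Scd2, Fads2, Fads3 and Elovl1) were below this level, all of them lower in Ucp1-KO cells. The number depended on single cultures. It was 6 without WT replicate 10, namely the same 4, Fads1 and the higher Elovl3. It was 1 without WT replicate 12, and 2 without WT replicate 11, Ucp1-KO replicate 14 or Ucp1-KO replicate 15. The number over all 16865 transcripts, 935 with all cultures, changed as well. It was 1754 without WT replicate 10, 441 without WT replicate 12 and 317 without WT replicate 11. Without Ucp1-KO replicate 14 it was 602, and without Ucp1-KO replicate 15 it was 870.

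For 6 of the 10 members every Ucp1-KO culture was below every WT culture, against 5.15% of all transcripts tested. None lay above, against 6.04%, and 11.2% of all transcripts were without overlap in either direction. For each of these 6 genes an exact two-sided permutation test gave p = 0.1, the smallest p that 3 against 3 cultures allow. Of the 9 members tested, 8 had a log2 fold change below 0, against 50.4% of all transcripts, and their median was -0.24, against -0.0016 over all transcripts. The members were measured in the same 6 cultures and several varied together (Pearson's r over these 6 cultures was 0.93 for Scd2 with Fads2 and 0.91 for Elovl1 with Fads3, but -0.96 for Elovl3 with Fads1 and -0.83 for Elovl3 with Elovl5), so that they do not count as separate observations of the genotype. All 6 were still without overlap after median-of-ratios scaling.

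**Figure D3:**
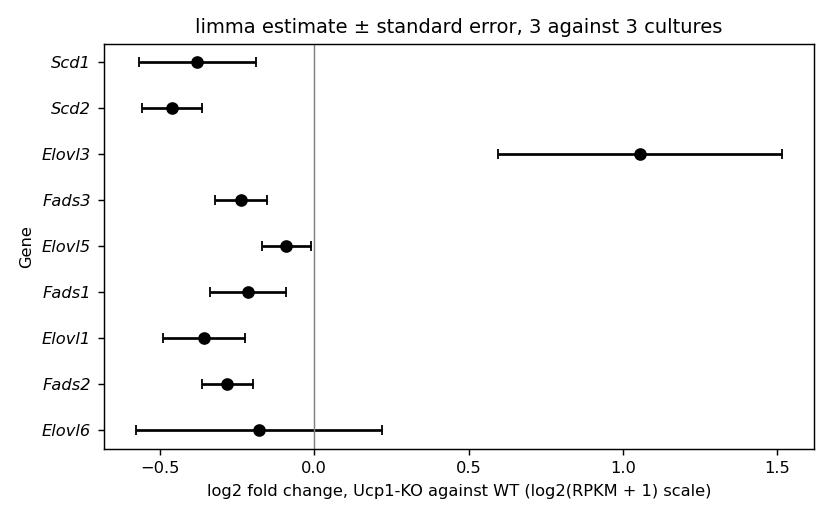
Log2 fold change of the 9 members tested, Ucp1-KO against WT, with the limma standard error as bars. Scd2 is at -0.46 with a short bar, Elovl3 at 1.06 with the longest, and Elovl6 is the only member whose bar crosses 0.

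The table also lists cDNA and Ensembl transcripts of the same genes, which share reads with the RefSeq ones. Among all annotated transcripts of at least 0.5 RPKM, RefSeq included, all 6 of Scd2 and all 7 of Fads3 had all Ucp1-KO below all WT cultures, with Ucp1-KO means between 69.9% and 76.1% and between 84.3% and 85.2% of WT. The same held for 5 of 7 transcripts of Scd1 (73.0% to 82.9% of WT), 8 of 11 of Elovl1 (46.8% to 79.5%) and 3 of 6 of Elovl5 (89.9% to 95.5%). For Fads2 it held for 4 of 7, and the means ran from 73.3% to 107.7% of WT, so that not all of its transcripts were lower. For Fads1 and Elovl6 it held for 0 of 6 and 0 of 4, at 83.1% to 91.3% and 96.6% to 97.9% of WT. All 3 transcripts of Elovl3 were higher in the mean, at 196% to 199% of WT, and all overlapped.

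Of the stromal markers, 6 of 7 were abundant enough to be tested, all 6 had a negative log2 fold change, Dcn and Lum were at an unadjusted p under 0.05, and Dcn, Lum and Pdgfra did not overlap. Dcn, a proteoglycan of the matrix, had 72.3 ± 18.6 RPKM in the WT group against 39.2 ± 7.54 RPKM in the Ucp1-KO group (SD, n = 3 each). Of the 4 endothelial markers 3 were tested, all 3 had a negative log2 fold change (median -0.41), and 0 were at an unadjusted p under 0.05. The other lists went the opposite way on balance, with 0 genes at this level. Positive log2 fold changes were found for 5 of 5 macrophage markers (median 0.33), 2 of 2 skeletal muscle markers tested (median 0.74) and 5 of 6 adipocyte markers (median 0.05), among them Cidea with 0.43 and Adipoq with 0.23. The part of any of these cell types in the values of the members was not tested. Without WT replicate 11, the culture with the highest stromal and endothelial sums, the log2 fold change was -0.47 for Scd2, -0.31 for Fads2, -0.39 for Scd1, -0.32 for Elovl1, -0.20 for Fads3 and -0.06 for Elovl5. Without Ucp1-KO replicate 14, the culture with the highest macrophage sum, the log2 fold change was -0.51, -0.28, -0.45, -0.35, -0.22 and -0.11 in the same order. In both fits Fads3 and Elovl1 were no longer at an unadjusted p under 0.05. The same was found without WT replicate 12 and without Ucp1-KO replicate 15. Each of these fits rests on fewer cultures.

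Elongation and desaturation need partner enzymes, and these were compared from a list. The later steps of the elongation cycle are carried out by Hsd17b12, Tecr and the dehydratases Hacd1 to Hacd4. All 6 genes were tested, and 0 were at an unadjusted p under 0.05, with 2 higher, 4 lower and a median log2 fold change of -0.0038. The WT and Ucp1-KO means were 402 ± 90.0 and 414 ± 154 RPKM for Hsd17b12 and 119 ± 4.30 and 118 ± 6.14 RPKM for Tecr (SD, n = 3 each). Electrons reach the desaturases through cytochrome b5 and its reductase. Cyb5a, which the table names Cyb5, was higher in all Ucp1-KO cultures, with 197, 190.1 and 209.6 RPKM in the WT group against 238, 220.0 and 244.5 RPKM in the Ucp1-KO group (log2 fold change 0.24, standard error 0.09, limma adjusted p = 0.868, unadjusted p = 0.0380). Cyb5b and the reductase Cyb5r3 overlapped between genotypes, with log2 fold changes of 0.21 and -0.17.

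The remaining elongase and desaturase genes were scarce. Elovl2 was covered by 2 to 5 reads per culture, Elovl7 by 9 to 36, Scd4 by 13 to 20 and Fads6 by 1 to 14 reads. Of the 5 genes in this list Scd3 alone was tested, with 6.18 ± 1.44 RPKM in the WT group against 4.86 ± 2.20 RPKM in the Ucp1-KO group (SD, n = 3 each, log2 fold change -0.34, limma adjusted p = 0.889).

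The genes that supply malonyl-CoA and palmitate varied widely from culture to culture, and 0 of 5 were at an unadjusted p under 0.05. Fasn, which encodes fatty acid synthase, had 732, 434 and 466 RPKM in the WT group against 1118, 718 and 297 RPKM in the Ucp1-KO group. Acly, the source of cytosolic acetyl-CoA, had 429.5, 188 and 206 RPKM in the WT group against 497, 232 and 101 RPKM in the Ucp1-KO group. For both, as for Elovl6, Ucp1-KO replicate 13 was highest and replicate 15 lowest of all 6 cultures, and WT replicate 10 was highest of the WT cultures. Scd1 did not share this order, being highest in WT replicate 10 and lowest in Ucp1-KO replicate 15, with Ucp1-KO replicate 13 below all WT cultures.

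**Figure D4:**
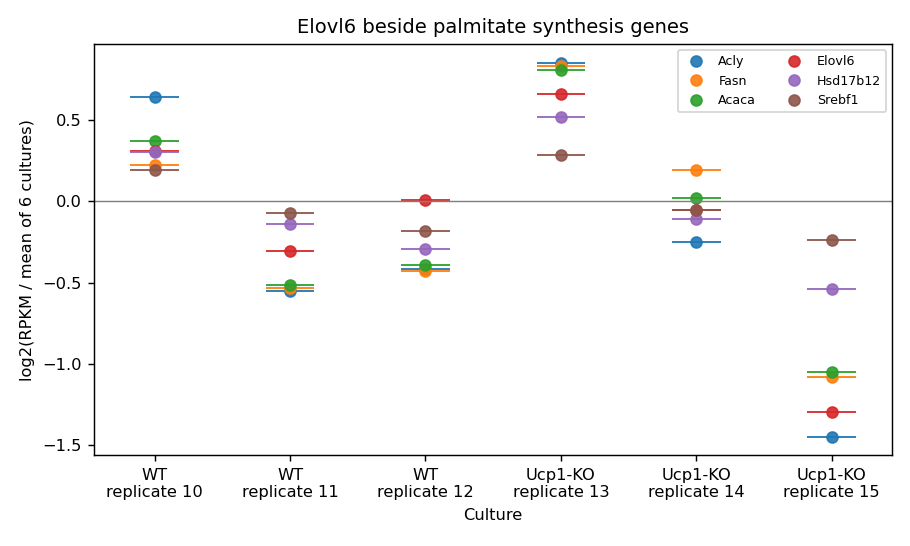
Log2 ratio of RPKM to the mean of the 6 cultures for Elovl6, 3 genes of palmitate synthesis (Acly, Fasn, Acaca), the elongation partner Hsd17b12 and the regulator Srebf1, 1 column per culture. The 6 genes, picked for this plot after their values were seen, are all highest in Ucp1-KO replicate 13 and lowest in Ucp1-KO replicate 15.

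Of 11 regulators of fatty acid synthesis genes, all tested, 7 were higher and 4 lower in Ucp1-KO cells. A single one, Srebf2, was at an unadjusted p under 0.05, against 5.54% of all transcripts. Srebf2 encodes a sterol-regulated transcription factor best known for cholesterol synthesis genes. It had 16.9, 16.8 and 16.5 RPKM in the WT group against 14.3, 13.1 and 13.8 RPKM in the Ucp1-KO group without overlap (log2 fold change -0.27, standard error 0.08, limma adjusted p = 0.868, unadjusted p = 0.0133). Srebf1, its relative for fatty acid genes, had 108 ± 15.03 and 110.2 ± 20.7 RPKM (SD, n = 3 each), a difference within the spread. Insig1 and Pparg, the most abundant of the list, had log2 fold changes of -0.0077 and 0.14 and overlapped.

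Among 11 users of elongated and desaturated acyl chains, 10 were tested, 0 were at an unadjusted p under 0.05, and 8 of the 10 had a log2 fold change below 0. Without overlap were Cers2, a ceramide synthase for very long chains, with 61.8 ± 2.99 and 55.5 ± 2.44 RPKM, and Lpcat3, which puts polyunsaturated chains into phospholipids, with 110.0 ± 5.95 and 90.3 ± 14.4 RPKM (SD, n = 3 each, WT first). The log2 fold changes were -0.15 for Cers2 and -0.29 for Lpcat3. The most abundant of the list were Acsl1 with 572 RPKM and Lpcat3 with 100.1 RPKM over the 6 cultures.

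Likeness of pattern was measured as Pearson's r of log2(RPKM + 1) over the 6 cultures, which share depth and composition within each library, among 5039 genes with a mean of at least 10 RPKM. The 3 genes most like Elovl3 were Ewsr1, Coq3 and Ces1d, with r between 0.9947 and 0.9971. For Elovl6 they were Rapgef1, Gnai1 and Hsph1, with r between 0.9919 and 0.9963. Cpne1, Cog7 and Add1 were closest to Scd1 (r from 0.9775 to 0.9939), and Rnft1, Lss and Phf2 to Fads2 (r from 0.9654 to 0.98). Lss encodes lanosterol synthase of the cholesterol pathway and had 50.025, 50.7 and 52.7 RPKM in the WT group against 42.7, 45.2 and 44.8 RPKM in the Ucp1-KO group. With so many genes and 6 cultures, values of this height are a ranking and not a finding.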

How the data were processed

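Values were analysed from 6 cultures, 3 per genotype, grouped by the sample labels. The authors aligned single reads of 50 bases to mouse build 38, counted those with a unique position per known transcript with Genomatix software, and deposited RPKM values. CASAVA and bcl2fastq are named in the submitters' processing notes. The authors compared genotypes with DESeq2, and their list of differentially expressed genes holds Ucp1 and the stromal marker Lum but none of the members. The deposited RPKM called for a test on the log scale instead.

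RefSeq transcripts (28890 of 168326 rows) with a mean of at least 0.5 RPKM were compared by limma 3.58.1 in R 4.3.3 on log2(RPKM + 1), with empirical Bayes, a mean-variance trend and no covariates. P-values were adjusted after Benjamini-Hochberg over 16865 transcripts, with a threshold of 0.05. Whole reads were recovered from RPKM with totals estimated on Ensembl transcripts of known length. For RefSeq transcripts a length was fitted so that the reads came out whole (tolerance 0.01 at 1 read), so that their wholeness is no check. The smallest such length was taken, so that the reads of some transcripts may be too low. The procedures were tested on simulated data. Single genes were also compared by exact permutation tests in Python 3.11.15 (numpy 2.4.6, pandas 2.3.3, scipy 1.17.1, matplotlib 3.10.9).

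The members and gene lists were chosen with earlier results of these data known. All 10 members are named. From each pathway list (not the marker lists), genes at an unadjusted p under 0.05 and the 2 most abundant are named, along with those needed to read the members. The choice of genes outside this rule, such as Cers2, Dcn and Acaca, was made with their values in view. The alternatives tried were 0.1 RPKM added in place of 1, no minimum abundance, 1 transcript per gene, the mean of a gene's transcripts, leaving out each culture, median-of-ratios scaling and limma-voom on recovered reads. Promoters are from RefSeq and transcripts from GENCODE M21, both on GRCm38. P-values measure the spread between cultures, which were prepared independently according to the series description.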

Additional observations from a re-analysis of the deposited data

How the results depend on the processing

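No paired analysis was possible because the replicate numbers of the 2 genotypes are not shared. The number of transcripts with an adjusted p under 0.05 was 22, none of them a member, without a minimum abundance. It was 0 under the other alternatives run for it, which do not include the mean of a gene's transcripts. With single cultures left out, the number of members at an unadjusted p under 0.05 ranged from 1 to 6 and the median log2 fold change of the members from -0.31 to -0.24. Over all 16865 transcripts the number at this level ranged from 317 without WT replicate 11 to 1754 without WT replicate 10. The number of genes of the pathway lists at an unadjusted p under 0.05, 2 as reported, then ranged from 0 to 6. The extremes came from leaving out Ucp1-KO replicates 14 and 15 respectively, and the number was 1 after median-of-ratios scaling. The lists held 6, 3, 1, 5, 11 and 10 tested genes, and 5.54% of all transcripts were at this level with all cultures. Over all transcripts the number was 602 without Ucp1-KO replicate 14 and 870 without Ucp1-KO replicate 15. The log2 fold change of Elovl6 ranged from -0.56 to 0.27 and turned its sign without Ucp1-KO replicate 15 alone. Asking that every annotated transcript of a gene be without overlap (added with the data in view) left 2 of the 6 members, Scd2 and Fads3. The number cannot rise under this demand, as more transcripts must pass. It fell because only 5 of 7 transcripts of Scd1, 8 of 11 of Elovl1, 3 of 6 of Elovl5 and 4 of 7 of Fads2 were without overlap. The other 107 of 108 log2 fold changes of single members under an alternative kept their direction and did not pass the threshold. Depth limits Elovl4, with 9 to 33 reads per culture.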
